A study of Mus musculus with 14 samples.

Results

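The transcripts of 37 genes that carry cells through mitosis were followed in TR.1 cells, an established line of mouse lung adenocarcinoma with a Trim24-Ret fusion. The genes were taken by symbol from a fixed list and comprise cyclin B and its kinase, mitotic kinases, the chromosomal passenger complex, the spindle checkpoint, the kinetochore, spindle motors, the cytokinesis machinery and the proliferation markers Top2a and Mki67. All 37 were found among the 55415 rows of both deposited count tables, and all 37 passed the filter on low counts in both, with no library below 190 counts for any of them.

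In the acute experiment the cells received 100 nM selpercatinib or 0.1% DMSO, the solvent, for 1, 2, 3 or 5 days, with 1 library per arm and day. In the resistance experiment there were 2 libraries of selpercatinib-resistant cells at 500 nM, 2 of pralsetinib-resistant cells labelled 200 and 400 nM, and 2 of parental cells passaged in 0.1% DMSO. Both drugs block the RET kinase selectively. Per the labels' protocols the resistant cultures began at 30 nM and over about 60 days reached 400 to 500 nM, so the label of 200 nM on 1 library is uncertain. All 14 libraries come from the same line with the same fusion, cultured in RPMI-1640 with 5% serum in 10 cm dishes. The labels do not state that libraries of a group came from separate cultures, nor on which day of culture the libraries of the resistance experiment were taken, and p-values here take only the scatter among libraries into account.

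Libraries held between 60723746 and 89827989 counts. Of the alveolar markers of the lung, Sftpc, Sftpb, Napsa and Hopx were at no more than 0.592 CPM in any library, CPM being the counts scaled to library size with TMM factors. Ager, a marker of alveolar type 1 cells, had 1.08, 3.69, 6.93 and 14.1 CPM on days 1, 2, 3 and 5 of selpercatinib, against 0.906 to 1.98 CPM in DMSO. Endothelial markers summed to 1.67 to 3.79 CPM. In such bulk samples, fewer cells in mitosis and less mitotic RNA per cell cannot be told apart.

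Cells accumulate the transcripts of this set during G2 and use their products within a short window. Cyclin B with CDK1 triggers entry, the kinetochore and the spindle checkpoint hold chromosomes until all are attached, and the anaphase-promoting complex (APC/C) with CDC20 then destroys cyclin B and releases the sister chromatids. Many of these promoters share a pair of short elements. The cell cycle genes homology region (CHR) is bound by MuvB complexes, which repress in quiescent cells with DREAM and activate in G2 with B-MYB and FOXM1, and the CCAAT box is bound by NF-Y.

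Promoter sequences of RefSeq (GRCm38.p6), from 250 bases before to 50 after the start, were matched for 32 of the 37 genes. The CHR was searched on both strands by its usual letters TTTGAA and by the variant letters TTCGAA as well as the rarer variant CTTGAA. Such letters were in 24 of the 32, or 75%, against 29.3% of all 32851 promoters and 21.4% of those of 9589 genes tested in the acute table. Within 50 bases of the start they were in 22 of 32, or 68.75%, against 8.90% of all promoters and 5.56% of the tested genes. CCAAT letters were in 24 of 32, against 37.4% of all promoters and 39.0% of the tested genes. Both were in 21 of 32, against 11.4% and 9.06%. In 1 of the 32, Cdca8, CHR and CCAAT letters overlap by a base, and a match describes these letters only. Windows of 160 bases, 110 before and 50 after the start, are given for 6 genes, read 5′ to 3′ on the gene's strand with CHR and CCAAT letters in capitals. They are those of Top2a and Kif23, which had the lowest p-values in the drug comparison, of Plk1, whose drug effect changed with the day, of Cdca3 and Nuf2, which were much higher in the resistant cells, and of Cdc20, the APC/C activator. The windows lie at chr11:99024140-99024299 (minus strand) for Top2a, at chr9:61946750-61946909 (minus) for Kif23, at chr7:122159325-122159484 (plus) for Plk1, at chr6:124830066-124830225 (plus) for Cdca3, at chr4:118437294-118437453 (minus) for Cdc20 and at chr1:169531415-169531574 (minus) for Nuf2.
Top2a: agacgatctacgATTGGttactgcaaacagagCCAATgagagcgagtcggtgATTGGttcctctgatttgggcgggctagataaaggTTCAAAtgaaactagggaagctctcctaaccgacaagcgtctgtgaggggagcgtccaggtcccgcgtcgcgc
Kif23: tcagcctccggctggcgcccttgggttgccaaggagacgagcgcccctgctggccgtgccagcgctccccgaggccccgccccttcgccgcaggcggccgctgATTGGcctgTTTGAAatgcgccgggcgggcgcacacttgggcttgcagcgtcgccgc
Plk1: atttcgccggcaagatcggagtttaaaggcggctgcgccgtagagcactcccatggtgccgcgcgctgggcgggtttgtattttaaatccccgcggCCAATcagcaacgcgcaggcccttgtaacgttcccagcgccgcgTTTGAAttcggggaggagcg
Cdca3: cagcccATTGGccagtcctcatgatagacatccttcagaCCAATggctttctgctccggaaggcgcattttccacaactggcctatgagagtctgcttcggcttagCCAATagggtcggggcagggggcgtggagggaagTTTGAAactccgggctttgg
Cdc20: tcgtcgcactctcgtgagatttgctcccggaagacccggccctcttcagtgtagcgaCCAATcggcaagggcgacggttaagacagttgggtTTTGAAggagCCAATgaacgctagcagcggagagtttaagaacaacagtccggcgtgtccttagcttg
Nuf2: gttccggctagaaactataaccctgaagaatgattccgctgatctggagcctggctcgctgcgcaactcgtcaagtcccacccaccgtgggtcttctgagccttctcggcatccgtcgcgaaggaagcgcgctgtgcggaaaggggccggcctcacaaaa
Top2a, Kif23, Plk1, Cdca3 and Cdc20 each carry TTTGAA on one strand or the other beside at least 1 CCAAT box, whereas the window of Nuf2 holds neither.

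The summed share of the 37 genes gives the outline. On days 1, 2, 3 and 5 they took 0.363, 0.254, 0.177 and 0.0936% of all counts in selpercatinib, against 0.637, 0.529, 0.277 and 0.121% in DMSO. The share fell with every later day in both arms, and it was lower in selpercatinib on each day. In the resistance table it was 0.400 and 0.418% in selpercatinib-resistant cells and 0.374 and 0.440% in pralsetinib-resistant cells, against 0.247 and 0.235% in parental cells.

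**Figure D1:**
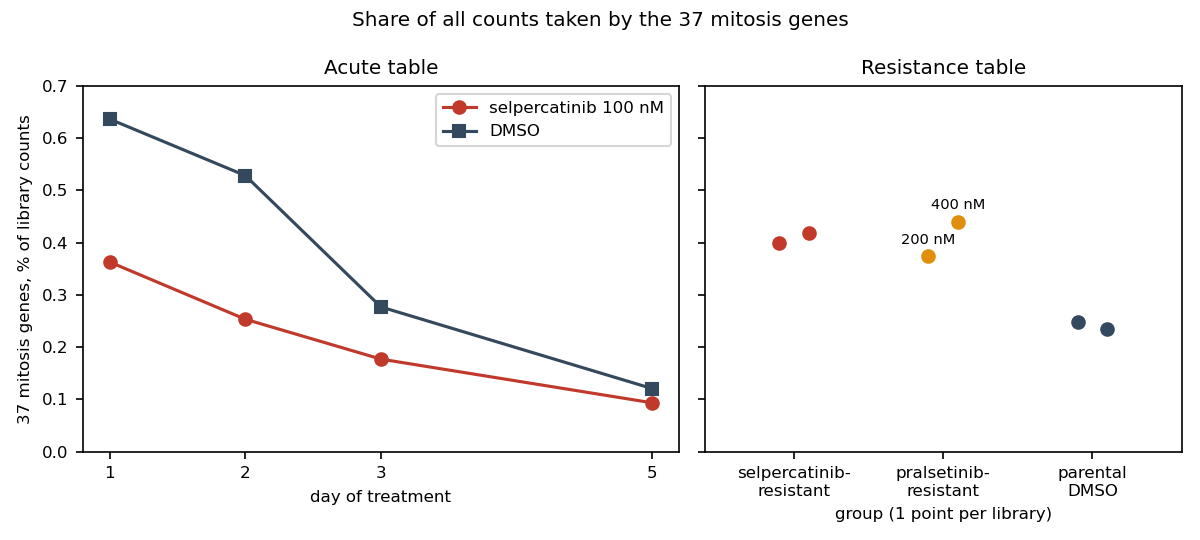
Percent of each library's counts that fell on the 37 mitosis genes, by day of treatment in the acute table (left) and by group in the resistance table (right), with 1 point per library. The acute share dropped to 0.0936% in selpercatinib and to 0.121% in DMSO by day 5, and all 4 resistant libraries sit above the parental ones.

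The first comparison set selpercatinib against DMSO of the same day. With day as a block, 32 of the 37 mitosis genes fell and none rose (0 at an unadjusted p under 0.05 and 0 by DESeq2), while 26.9% of 13209 genes tested fell, 26.6% rose and 53.5% were called in either direction (edgeR quasi-likelihood test, Benjamini-Hochberg adjusted p under 0.05). The median log2 ratio of the 37 was -0.61, against -0.0019 over all genes. The 5 that did not pass were Cks2 at -0.22 (SE 0.14), Ndc80 at -0.29 (SE 0.11), Nusap1 at -0.42 (SE 0.16), Plk1 at -0.43 (SE 0.20) and Cdca3 at -0.47 (SE 0.19). Without the day in the fit, none of the 37 was called and none had an unadjusted p under 0.05. Over all 13209 genes, that fit put 2573 higher and 2497 lower, and 6342 had an unadjusted p under 0.05. The spread over days is part of its error. Without the day 2 pair, 20 of the 37 were called lower, as were 2578 of all 13209 genes.

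Genes of mitotic entry fell in 4 of 6 cases. Cdc25c, the phosphatase that removes the inhibitory phosphates of CDK1, had 9.19, 7.40, 4.37 and 2.34 CPM on days 1, 2, 3 and 5 of selpercatinib, against 21.0, 19.6, 10.2 and 4.10 CPM on those days of DMSO. It had the lowest mean CPM and the largest fitted drug effect of the 37, at a log2 ratio of -1.16 (SE 0.13) and an edgeR adjusted p of 0.000611. Ccnb1, Ccnb2 and Cdk1, the mitotic cyclins and their kinase, were lower by 0.59 to 0.73 on the log2 scale. Cdca3, a trigger of mitotic entry that promotes the loss of WEE1, had 58.1, 37.6, 21.7 and 9.37 CPM in selpercatinib on the 4 days, against 101, 76.4, 23.2 and 9.05 CPM in DMSO. Its arms were apart on days 1 and 2 and nearly equal on days 3 and 5, and it missed the threshold (edgeR adjusted p = 0.0724). Cks2, a small subunit of cyclin-dependent kinases, behaved likewise, with log2 ratios of -0.50 on day 1 and 0.18 on day 5.

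Of the mitotic kinases, Aurka passed and Plk1 did not. Aurka, which acts at centrosomes and the spindle poles, had 80.6, 59.8, 41.1 and 24.7 CPM over the 4 days of selpercatinib, against 133, 111, 67.8 and 25.9 CPM in DMSO, a log2 ratio of -0.61 (SE 0.14) with an edgeR adjusted p of 0.0101. Plk1, the polo kinase that drives entry, spindle assembly and cytokinesis, had 111, 70.6, 49.6 and 24.5 CPM in selpercatinib, against 197, 133, 60.0 and 19.4 CPM in DMSO. On day 5 the Plk1 level was higher in selpercatinib, and over all days its edgeR adjusted p was 0.118.

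All 4 chromosomal passenger genes fell. This complex corrects faulty attachments of chromosomes to the spindle and later marks the cleavage plane. Aurkb, its kinase, had 39.7, 27.4, 19.3 and 10.3 CPM in selpercatinib on days 1, 2, 3 and 5, against 81.2, 69.2, 34.2 and 16.9 CPM in DMSO, lower on each day, with a log2 ratio of -0.98 (SE 0.12) and an edgeR adjusted p of 0.000712. Birc5, which encodes survivin, had 55.0, 33.7, 19.4 and 7.84 CPM in selpercatinib, against 108, 78.4, 21.4 and 14.3 CPM in DMSO, and the arms were close on day 3 only. Its log2 ratio was -0.81 (SE 0.17), and the scaffold gene Incenp and the targeting subunit gene Cdca8 had -0.63 (SE 0.11) and -0.43 (SE 0.12).

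The 6 genes of the spindle checkpoint and the APC/C fell as well. Bub1, a checkpoint kinase at the kinetochore, had 60.6, 41.9, 28.9 and 13.2 CPM across the days of selpercatinib, against 119, 104, 51.0 and 23.7 CPM in DMSO, and its selpercatinib level was lower on every day. The log2 ratio was -0.99 (SE 0.10) with an edgeR adjusted p of 0.000413. Ttk, which encodes the MPS1 kinase at the top of the checkpoint, had 23.3, 16.8, 10.7 and 5.86 CPM in selpercatinib, against 38.0, 30.6, 15.4 and 5.88 CPM in DMSO, so the arms met on day 5. The other 4, Bub1b, Mad2l1, Cdc20 and the APC/C's ubiquitin-conjugating enzyme gene Ube2c, were lower by 0.41 to 0.85 on the log2 scale.

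At the kinetochore 4 of 5 genes fell. Cenpf, a protein of the outer kinetochore corona, had 122, 83.4, 56.6 and 26.5 CPM in selpercatinib on the 4 days, against 223, 174, 92.3 and 31.1 CPM in DMSO, a log2 ratio of -0.72 (SE 0.13). Nuf2, a subunit of the NDC80 complex that grips microtubules, had 25.7, 17.9, 11.3 and 5.82 CPM in selpercatinib, against 52.0, 35.8, 11.3 and 6.95 CPM in DMSO, with no gap on day 3. Its partner in the complex, Ndc80, was the kinetochore gene that did not pass, and the drug log2 ratio of Nuf2 was -0.58 (SE 0.19) with an edgeR adjusted p of 0.0411. The centromeric histone gene Cenpa and the kinetochore motor gene Cenpe had -0.80 (SE 0.16) and -0.69 (SE 0.14).

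Spindle motors and microtubule proteins fell in 5 of 6 cases, and cytokinesis genes in 6 of 6. Kif18a, a motor that damps chromosome movements, had 24.9, 18.4, 13.5 and 9.02 CPM in selpercatinib over the days, against 36.1, 31.2, 25.0 and 10.3 CPM in DMSO, with the widest gap on day 3. Nusap1, a protein that bundles spindle microtubules, had 69.9, 48.4, 33.2 and 16.5 CPM in selpercatinib, against 81.7, 84.8, 56.3 and 15.3 CPM in DMSO, and its gap was small on days 1 and 5. The pole-separating motor gene Kif11, the microtubule depolymerase gene Kif2c, the chromokinesin gene Kif4 and Tpx2, an activator of Aurora A, had log2 ratios of -0.34 to -0.66. Kif23, at chr9:61915905-61946774, is the motor of the central spindle that builds the cleavage furrow with Racgap1 and Ect2. It had 135, 85.8, 53.0 and 25.6 CPM in selpercatinib, against 272, 197, 104 and 51.0 CPM in DMSO, about the same ratio on every day. Its log2 ratio of -1.04 (SE 0.07) had the lowest p of the 37 (edgeR adjusted p = 9.20e-05). Kif20a, another motor of the central spindle, had 81.3, 55.7, 29.7 and 13.3 CPM in selpercatinib, against 159.5, 129, 46.8 and 15.1 CPM in DMSO, a log2 ratio of -0.77 (SE 0.16). The exons of Kif20a share 29.3% of their length with the opposite-strand gene Cdc23, and since the strand setting of the counting is not given in the sources used here, its counts may include reads of Cdc23, which itself was at -0.31 (SE 0.07) in this comparison. The same holds for Ube2c, which shares 22.8% with Tnnc2, and for Kif4, which shares 15.1% with Pdzd11.

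Both chromosome genes fell. Top2a, at chr11:98992943-99024189, encodes the topoisomerase that untangles sister chromatids and was the member with the highest mean count. It had 368, 245, 164 and 80.8 CPM in selpercatinib on days 1, 2, 3 and 5, against 765, 667, 369.7 and 157 CPM in DMSO, and lay below the DMSO level on each day. Its log2 ratio was -1.16 (SE 0.10), with an edgeR adjusted p of 0.000191. Mki67, whose product coats mitotic chromosomes and is stained as Ki-67, had 342, 207, 139 and 54.3 CPM in selpercatinib, against 690.4, 489.9, 205 and 69.1 CPM in DMSO, a log2 ratio of -0.79 (SE 0.15). Per kilobase of exon the order of the members was different, with Ube2c, Cks2 and Cdc20 highest at means of 57.2, 44.9 and 44.1 CPM per kb over the 14 libraries and Kif18a lowest at 2.26.

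**Figure D2:**
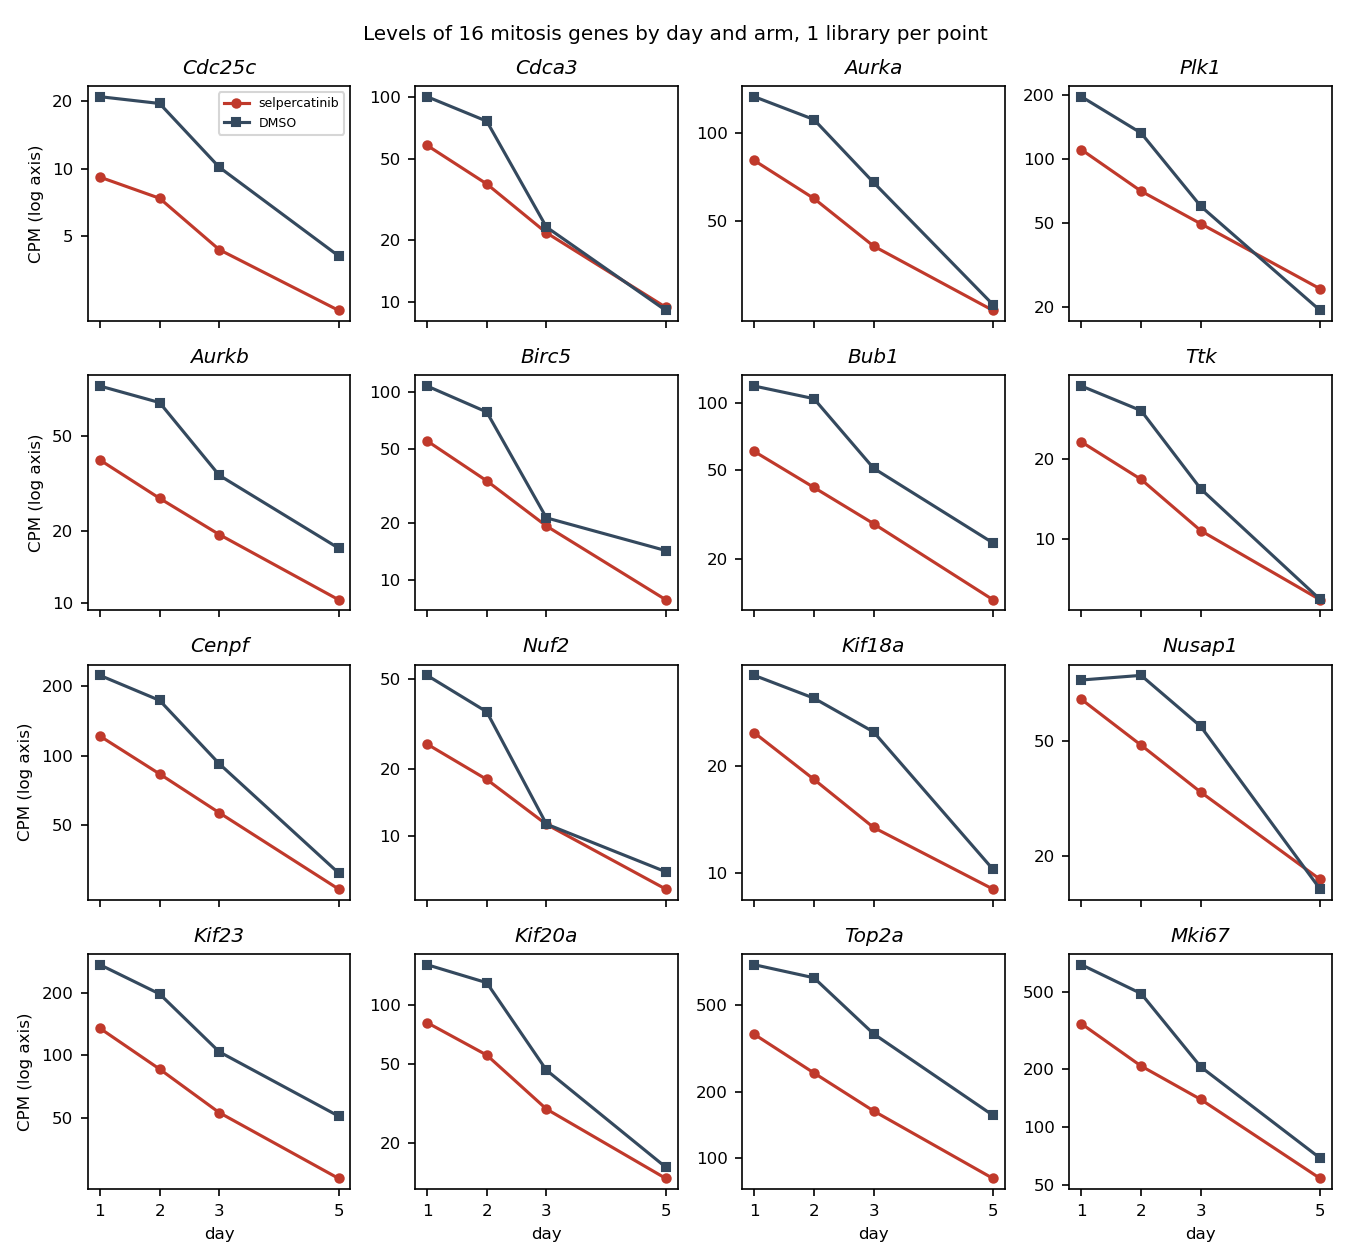
Levels in CPM on a log axis against day for 16 of the 37 genes, with selpercatinib in red circles and DMSO in dark squares, 1 library per point. Every gene shown is lowest on day 5 in both arms, while the gap between the arms is still seen on day 5 in Kif23, Top2a, Bub1 and Aurkb and closes by day 5 in Plk1, Cdca3, Ttk and Nusap1.

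The second question was how far the genes fell with the day of culture, drug or no drug. Within selpercatinib, 37 of 37 fell per day, where 7.78% of 13209 genes fell, 5.18% rose and 13.0% were called in either direction. Within DMSO, 37 of 37 fell as well, where 15.9% fell, 18.0% rose and 33.8% were called in either direction (edgeR quasi-likelihood test, 1 line per arm). The median slope was -0.51 log2 units per day in selpercatinib (range -0.71 to -0.17) and -0.62 in DMSO (range -0.93 to -0.37), while the median over all genes was 0.00014 in selpercatinib and 0.014 in DMSO. The day 5 level minus the day 1 level had a median of -2.05 log2 units in selpercatinib and of -2.36 in DMSO over the 37 genes. All 37 were lowest on day 5 in both arms, as were 16.9% of 13197 genes, and 35 of 37 dropped at each later day in both arms, as did 8.38% of those genes.

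The steepest DMSO slopes belonged to Cdca3, at -0.66 (SE 0.08) per day in selpercatinib and -0.93 (SE 0.09) in DMSO, to Kif20a, at -0.67 (SE 0.07) in selpercatinib and -0.91 (SE 0.08) in DMSO, and to Ccnb2, at -0.55 (SE 0.10) in selpercatinib and -0.87 (SE 0.10) in DMSO. Plk1 had -0.54 (SE 0.04) per day in selpercatinib and -0.86 (SE 0.04) in DMSO, with edgeR adjusted p-values of 0.00109 in selpercatinib and 0.000341 in DMSO. Cks2 had the shallowest slope in both arms, at -0.17 (SE 0.04) in selpercatinib and -0.37 (SE 0.04) in DMSO. Without day 1, none of the 37 slopes was called within selpercatinib, where 36 had an unadjusted p under 0.05 and the median was -0.51. That fit called 0 of all 13209 genes higher and 0 lower, and 1616 of them had an unadjusted p under 0.05. Without one of the other days, 29 to 37 were called within selpercatinib, where 204 to 2282 of all genes fell. Within DMSO 31 to 37 were called without any one day, where 88 to 3036 of all genes fell. Day is also the batch tag of the labels and each day has 1 library per arm, so day of culture and any difference between sampling days cannot be told apart.

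**Figure D3:**
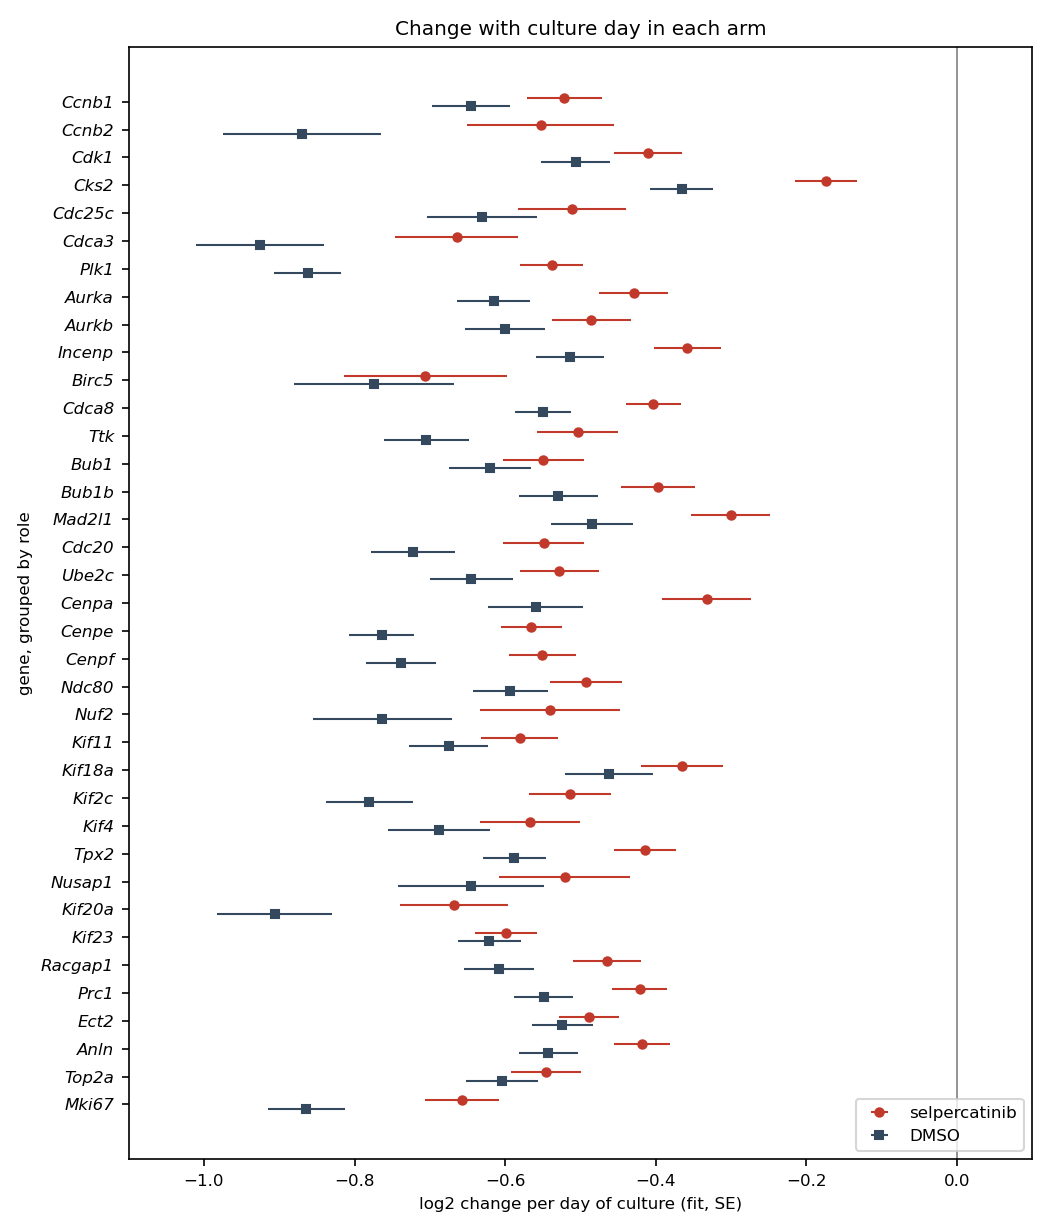
Fitted log2 change per day of culture with its SE for each of the 37 genes, grouped by role, in selpercatinib (red circles) and DMSO (dark squares). Every slope lies below 0, between -0.71 and -0.17 in selpercatinib and between -0.93 and -0.37 in DMSO.

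Set against each other, the day had the larger part. In a split of the sum of squares of each gene's 8 log2 levels, day took a median of 86.2% over the 37 genes. The drug took 10.7% and the remainder 2.38%, and day exceeded drug in 37 of 37. Day has more levels than the drug in this split, so scatter alone would also give day the larger share. Over all 13209 genes tested, the medians were 35.5% for day and 44.6% for drug, and day exceeded drug in 46.9%. Over 45 DNA replication genes, the medians were 71.6% for day and 16.3% for drug. The drug share was highest for Top2a at 31.4% and Cdc25c at 31.1% and lowest for Ndc80 at 3.04%. Every one of the 37 genes was higher on day 1 of selpercatinib than on day 5 of DMSO, by a median of 1.70 log2 units and by 0.88 to 2.68.

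The third comparison asked whether the drug effect changed with the day. The median log2 ratio of the 37 genes over the 4 days in order was -0.79, -0.96, -0.55 and -0.19. All 37 were lower in selpercatinib on days 1, 2 and 3, and 30 of 37 on day 5, when 51% of all genes were. The 7 that were higher in selpercatinib on day 5 were Plk1, Cks2, Ccnb2, Nusap1, Prc1, Cdca3 and Tpx2, by 0.01 to 0.34 log2 units. The slope of selpercatinib minus that of DMSO was positive for all 37, with a median of 0.14 log2 units per day against -0.01 over all genes. In the test of this difference, 1 of 37 was called, Plk1. Of 13209 genes, 2.06% were called in either direction, with 0.780% upward and 1.28% downward. At an unadjusted p under 0.05 there were 19 of the 37, all upward, and 2623 of all 13209 genes in either direction. Plk1 had 0.32 (SE 0.06) per day with an edgeR adjusted p of 0.0410, and drug log2 ratios of -0.83, -0.91, -0.27 and 0.34 on days 1, 2, 3 and 5. Without day 3, 15 of the 37 were called, where 616 of all 13209 genes were higher and 935 lower. Without day 1 none of the 37 was called, where 14 of all genes were higher and 18 lower. In that fit 23 of the 37 had an unadjusted p under 0.05, as did 1176 of all 13209 genes. Without day 5, 1 of the 37 was called, where 524 of all genes were higher and 1068 lower. There 6 of the 37 were higher and 1 lower at an unadjusted p under 0.05, where 3960 of all 13209 genes had such a p. The median of the 37 was 0.09. In that fit the difference turned negative in Cdc25c, Kif18a, Nusap1 and Top2a among the genes described by library. DESeq2 called 10 of the 37, where 352 of all 13209 genes were higher and 558 lower. Without the filter on low counts edgeR also called 10, where 443 of 35779 genes were higher and 724 lower.

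The smallest slope differences belonged to Kif23, Ect2 and Top2a. Kif23 had drug log2 ratios of -1.01, -1.20, -0.97 and -0.99 on the 4 days, and its slope difference was 0.02 (SE 0.05) with an edgeR adjusted p of 0.834. Ect2, the exchange factor that switches on RhoA at the furrow, had -0.51, -0.73, -0.55 and -0.45. Top2a had -1.06, -1.44, -1.17 and -0.96. These 3 genes were thus lower in selpercatinib on day 5 as on day 1.

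**Figure D4:**
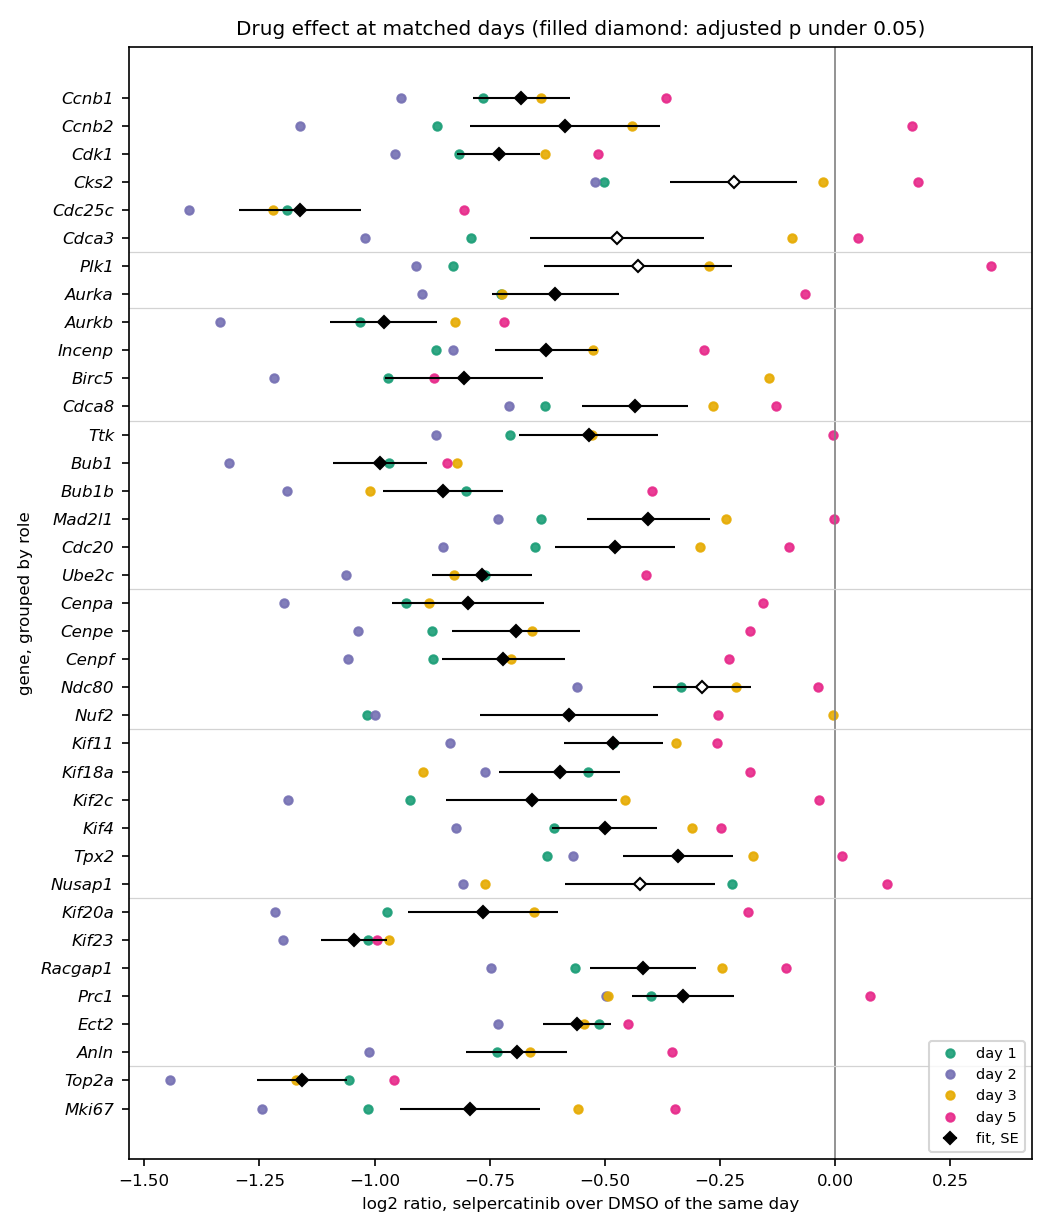
Log2 ratio of selpercatinib over DMSO on each day (coloured points) and the fitted ratio with its SE (diamonds, filled where the adjusted p was under 0.05) for the 37 genes, grouped by role. Day 2 points lie farthest to the left for most genes and day 5 points nearest to 0, with 7 of them above 0.

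The resistance table asked how these genes stood in cells that had grown out under either drug. The resistant libraries are labelled with a drug dose and the parental ones with DMSO, so resistance and drug exposure cannot be told apart. Nor can a difference in the day of sampling, which is not stated. In DMSO of the acute table, day 5 minus day 1 had a median of -2.36 log2 units over the 37 genes. In selpercatinib-resistant cells, 31 of 37 mitosis genes were higher than in parental cells and 1 was lower, where 35.2% of 14389 genes were higher, 34.4% lower and 69.6% called in all. In pralsetinib-resistant cells, 30 of 37 were higher and 1 was lower, where 35.8% of genes were higher, 34.6% lower and 70.3% called. Both comparisons use the same 2 parental libraries. The median log2 ratio was 0.65 in selpercatinib-resistant cells and 0.61 in pralsetinib-resistant cells, against -0.0005 and 0.0062 over all genes in the same comparisons. With library totals in place of TMM scaling, the median of all genes was 0.14 with selpercatinib resistance and 0.18 with pralsetinib resistance, and that of the 37 was 0.80 and 0.78 in the same comparisons. The split of all calls then was 6148 higher and 3904 lower with selpercatinib resistance, against 5062 and 4956 under TMM, and 6435 higher and 3796 lower with pralsetinib resistance, against 5145 and 4972 under TMM. For 34 of 37 genes both selpercatinib-resistant libraries lay above both parental ones, as for 45.0% of all genes tested, and for 34 of 37 both pralsetinib-resistant ones did, as for 42.9%. Both libraries lay below both parental ones for 1 of 37 genes with selpercatinib resistance and for 2 with pralsetinib resistance, where 44.4% and 42.3% of all genes did.

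Nuf2 and Cdca3 had the largest differences. Nuf2 had 49.8 and 49.4 CPM in selpercatinib-resistant and 49.8 and 53.7 CPM in pralsetinib-resistant libraries (200 and 400 nM), against 13.2 and 15.2 CPM in parental ones, log2 ratios of 1.80 (SE 0.09) with selpercatinib resistance and 1.86 (SE 0.09) with pralsetinib resistance. Cdca3 had 80.0 and 83.0 CPM in selpercatinib-resistant and 90.03 and 100.4 CPM in pralsetinib-resistant libraries, against 24.7 and 24.1 CPM in parental ones, log2 ratios of 1.74 (SE 0.08) with selpercatinib resistance and 1.97 (SE 0.08) with pralsetinib resistance. No resistant library of either gene came near the parental range. Kif20a followed with 145 and 144 CPM in selpercatinib-resistant and 126 and 152 CPM in pralsetinib-resistant libraries, against 46.1 and 43.8 CPM in parental ones, log2 ratios of 1.68 (SE 0.10) with selpercatinib resistance and 1.63 (SE 0.10) with pralsetinib resistance, while the overlapping Cdc23 had 0.81 (SE 0.09) with selpercatinib resistance. Birc5 had 63.5 and 69.5 CPM in selpercatinib-resistant and 65.2 and 74.5 CPM in pralsetinib-resistant libraries, against 25.0 and 25.6 CPM in parental ones. These 4 genes passed in both comparisons, with edgeR adjusted p-values of 1.85e-06, 1.07e-06, 4.10e-06 and 6.41e-06 for selpercatinib resistance.

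By role, 6 of 6 entry genes and both mitotic kinases were higher in each resistant group. Cdc25c had 22.3 and 24.0 CPM in selpercatinib-resistant and 23.7 and 25.5 CPM in pralsetinib-resistant libraries, against 9.46 and 10.4 CPM in parental ones. Plk1 had 97.7 and 102 CPM in selpercatinib-resistant and 102 and 120.3 CPM in pralsetinib-resistant libraries, against 55.7 and 49.6 CPM in parental ones. Aurka, in contrast, was raised little, at 82.9 and 84.1 CPM in selpercatinib-resistant and 81.4 and 83.9 CPM in pralsetinib-resistant libraries, against 70.6 and 67.3 CPM in parental ones, log2 ratios of 0.28 (SE 0.06) with selpercatinib resistance and 0.26 (SE 0.06) with pralsetinib resistance. In the passenger complex, 3 of 4 genes were higher in each resistant group, and Aurkb had 51.2 and 53.6 CPM in selpercatinib-resistant and 47.7 and 58.4 CPM in pralsetinib-resistant libraries, against 26.6 and 25.3 CPM in parental ones. The exception was Cdca8, at log2 ratios of 0.01 (SE 0.10) with selpercatinib resistance and 0.23 (SE 0.10) with pralsetinib resistance.

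The checkpoint and APC/C group split. Ttk had 26.8 and 28.3 CPM in selpercatinib-resistant and 23.7 and 28.0 CPM in pralsetinib-resistant libraries, against 13.6 and 12.4 CPM in parental ones, and Bub1 had 63.2 and 64.9 CPM in selpercatinib-resistant and 51.6 and 68.1 CPM in pralsetinib-resistant libraries, against 39.9 and 40.9 CPM in parental ones. Both rose, as did Bub1b and Mad2l1, in either comparison. Cdc20, the activator that the checkpoint holds back, had 0.27 (SE 0.10) in selpercatinib-resistant cells, which missed the threshold (edgeR adjusted p = 0.0508), and 0.38 (SE 0.10) in pralsetinib-resistant cells, which passed (edgeR adjusted p = 0.0120). Ube2c passed in neither, at -0.01 (SE 0.07) with selpercatinib resistance and -0.15 (SE 0.07) with pralsetinib resistance.

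All 5 kinetochore genes were higher in selpercatinib-resistant cells and 4 of 5 in pralsetinib-resistant cells. Cenpf had 104 and 114 CPM in selpercatinib-resistant and 102 and 106 CPM in pralsetinib-resistant libraries, against 79.7 and 70.2 CPM in parental ones. Of the spindle genes, 6 of 6 passed in selpercatinib-resistant and 5 of 6 in pralsetinib-resistant cells. Nusap1 had 90.9 and 93.8 CPM in selpercatinib-resistant and 75.8 and 83.3 CPM in pralsetinib-resistant libraries, against 44.3 and 44.4 CPM in parental ones. Kif18a had 27.9 and 27.4 CPM in selpercatinib-resistant and 21.6 and 26.3 CPM in pralsetinib-resistant libraries, against 19.8 and 20.4 CPM in parental ones, and it passed with selpercatinib resistance and not with pralsetinib resistance, while the test between the resistant groups did not pass (edgeR adjusted p = 0.248). Both chromosome genes rose. Top2a had 456 and 463 CPM in selpercatinib-resistant and 384 and 450.3 CPM in pralsetinib-resistant libraries, against 299 and 286 CPM in parental ones, and Mki67 had 316 and 383 CPM in selpercatinib-resistant and 341 and 343 CPM in pralsetinib-resistant libraries, against 186 and 163 CPM in parental ones.

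Of the 6 cytokinesis genes, 3 were higher and 1 was lower in each resistant group. Kif23 was the member that fell, with 97.8 and 103 CPM in selpercatinib-resistant and 103 and 118 CPM in pralsetinib-resistant libraries, against 137 and 132 CPM in parental ones. All 4 resistant libraries lay below both parental ones, and the log2 ratios were -0.42 (SE 0.08) with selpercatinib resistance (edgeR adjusted p = 0.00218) and -0.28 (SE 0.08) with pralsetinib resistance (edgeR adjusted p = 0.0149). The call in pralsetinib-resistant cells was lost without either parental library and with library totals in place of TMM scaling. Racgap1, its partner in the centralspindlin complex, rose by 0.66 (SE 0.07) and 0.61 (SE 0.07) log2 units in the selpercatinib-resistant and pralsetinib-resistant cells. Prc1, which bundles the central spindle, and Anln, which encodes the furrow protein anillin, passed in neither group, at 0.23 (SE 0.10) and 0.20 (SE 0.09) in selpercatinib-resistant cells and 0.22 (SE 0.10) and -0.04 (SE 0.09) in pralsetinib-resistant cells.

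**Figure D5:**
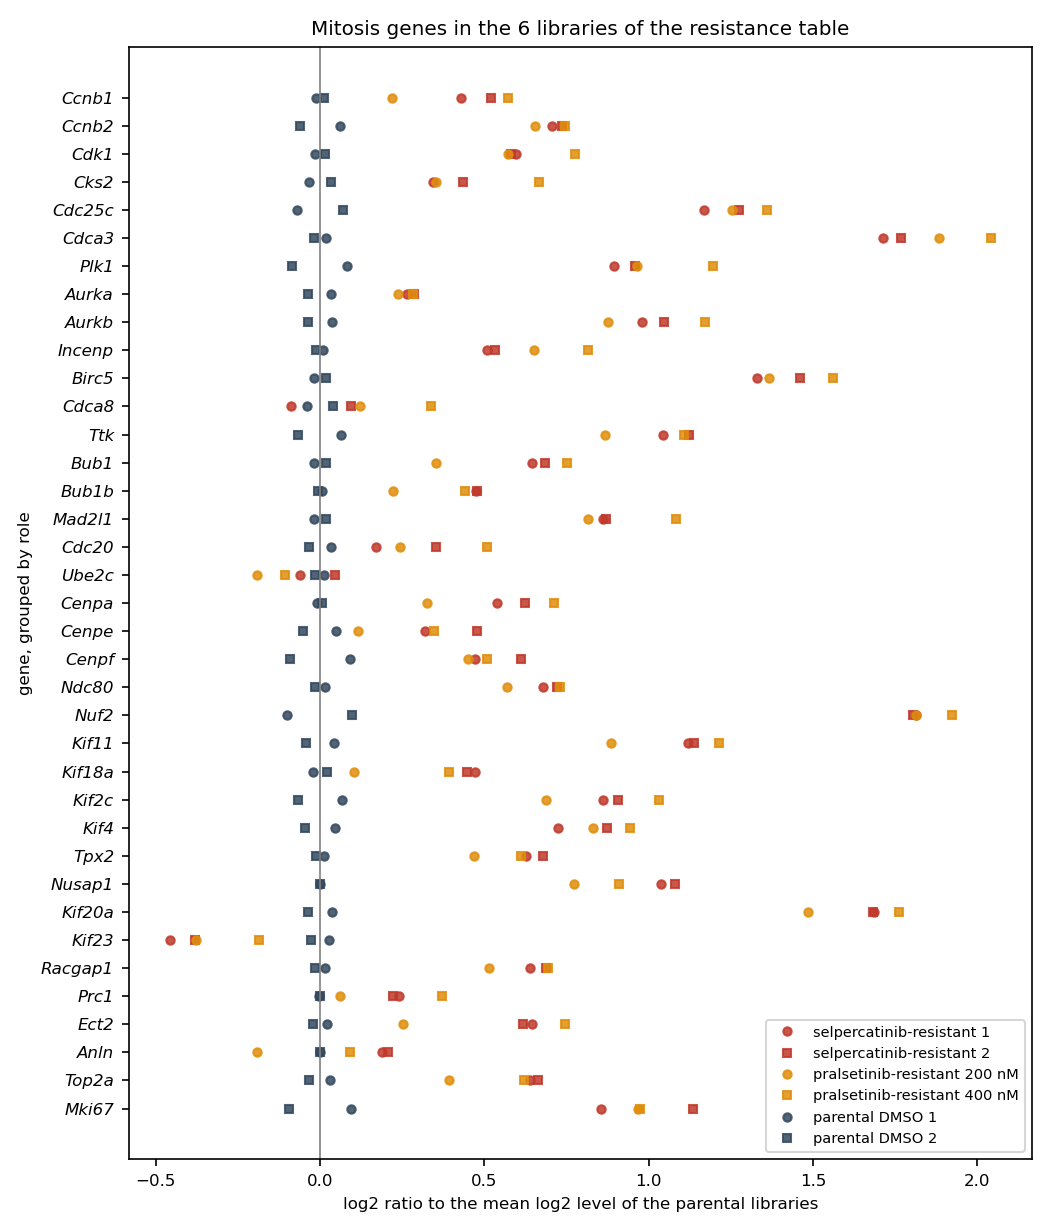
Log2 ratio of each library of the resistance table to the mean log2 level of the 2 parental libraries, for the 37 genes grouped by role. Nuf2, Cdca3 and Kif20a lie farthest to the right in all 4 resistant libraries, and Kif23 lies to the left of the parental points in all 4.

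Between the resistant groups, 0 of 37 genes passed in selpercatinib-resistant against pralsetinib-resistant cells, where 10.6% of 14389 genes were called, 6.46% higher and 4.13% lower (edgeR). Log2 ratios ran from -0.23 to 0.24, with SEs of 0.06 to 0.14. At an unadjusted p under 0.05 there were 4 of the 37, 2 in each direction, and 4011 of all 14389 genes. DESeq2 called 1. The pralsetinib-resistant pair itself was spread out, since all 37 genes were higher in the library labelled 400 nM than in that labelled 200 nM, by a median of 0.22 log2 units, where 47.5% of all genes were. Each labelled dose has 1 library, so dose and library cannot be told apart. Without the 200 nM library the median log2 ratio of the 37 was -0.096, against -0.0014 over all genes. Without the 400 nM library it was 0.14, against -0.0060 over all genes.

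Markers of lung epithelium and of other cell types moved with the resistance comparisons. The 13 lung epithelial markers summed to 1219 and 1144 CPM in selpercatinib-resistant and 1247 and 607 CPM in pralsetinib-resistant libraries, against 7925 and 8014 CPM in parental ones, and Epcam was at 0.52 to 1.38 CPM in the resistant libraries, against 239 and 245 CPM in parental ones. Not all went this way. Nkx2-1 had 8.30 and 6.63 CPM in selpercatinib-resistant and 2.44 and 0.569 CPM in pralsetinib-resistant libraries, against 1.85 and 1.86 CPM in parental ones. The 10 fibroblast markers summed to 2036 and 1789 CPM in selpercatinib-resistant and 1238 and 786 CPM in pralsetinib-resistant libraries, against 15.2 and 14.1 CPM in parental ones. Col1a1 alone gave 1417 and 1254 CPM with selpercatinib resistance and 718 and 316 CPM with pralsetinib resistance. Lum and Thy1 were at no more than 0.178 CPM in the resistant libraries. Pdgfra was at 1.42 to 4.24 CPM there, against 2.44 and 2.67 CPM in parental ones. Mitochondrially encoded transcripts made up 2.47 and 2.44% of the counts in selpercatinib-resistant and 3.13 and 3.16% in pralsetinib-resistant libraries, against 1.67 and 1.73% in parental ones. The part of these in the rise of the mitosis genes was not tested.

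In the acute table the epithelial markers summed to between 10071 and 10848 CPM in selpercatinib, against 5702 to 7471 CPM in DMSO, with the DMSO values of days 3 and 5 below those of days 1 and 2. The fibroblast markers summed to 12.4, 19.2, 25.3 and 34.4 CPM over the 4 days of selpercatinib, against 6.66, 7.52, 9.01 and 9.11 CPM in DMSO, and their largest members on day 5 of selpercatinib were Thy1 at 14.7 CPM and Col1a1 at 14.4 CPM. The leukocyte markers summed to 16.6, 15.8, 16.9 and 14.9 CPM in selpercatinib, against 5.15, 6.30, 18.1 and 19.7 CPM in DMSO. Nearly all of this came from Csf1r and Cd68, while Ptprc, which marks leukocytes at large, was at no more than 0.138 CPM. Mitochondrially encoded transcripts made up 1.97 to 2.33% of the counts in selpercatinib, against 1.56 to 2.12% in DMSO. These values moved with the drug or the day, and their part in the fall of the mitosis genes was not tested.

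Other genes of the mitotic pathway were counted on 5 further lists of 158 genes in all, of which 157 were tested. In selpercatinib against DMSO, 91 (58.0%) fell and 7 (4.46%) rose, with a median of -0.39, where 26.9% of all genes fell and 26.6% rose. Per day, 91 fell and 1 rose within selpercatinib, where 7.78% of all genes fell and 5.18% rose, and 120 fell and 2 rose within DMSO, where 15.9% fell and 18.0% rose. In selpercatinib-resistant cells 94 (59.9%) were higher and 21 (13.4%) lower than in parental cells, with a median of 0.41, against 35.2% higher and 34.4% lower among all genes. In pralsetinib-resistant cells 86 (54.8%) were higher and 21 (13.4%) lower, with a median of 0.34, against 35.8% and 34.6% among all genes.

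Among 33 regulators, 22 (66.7%) fell and 1 rose with selpercatinib, a comparison in which 26.9% of all genes fell and 26.6% rose. E2f8, a repressor of the E2F family, fell by 1.61 (SE 0.09), and Fbxo5, an inhibitor of the APC/C, fell by 1.08 (SE 0.11). Ccna2, the cyclin of S phase and G2, fell by 0.66 (SE 0.06) per day within selpercatinib and by 0.91 (SE 0.06) within DMSO, and it rose by 1.62 (SE 0.12) in selpercatinib-resistant and by 1.71 (SE 0.12) in pralsetinib-resistant cells. Of 37 further kinetochore and centromere genes, 19 (51.4%) fell and none rose with selpercatinib. Ska1, a subunit that couples kinetochores to shrinking microtubules, had -1.50 (SE 0.15) with selpercatinib against DMSO and 1.86 (SE 0.13) in selpercatinib-resistant against parental cells. Spc25, another subunit of the NDC80 complex, rose by 2.15 (SE 0.11) in selpercatinib-resistant and by 2.16 (SE 0.11) in pralsetinib-resistant cells, and its slope difference of 0.42 (SE 0.07) per day passed (edgeR adjusted p = 0.0308).

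Condensin, cohesin and separase genes fell in 18 of 25 cases (72%) with selpercatinib, among them the condensin genes Ncaph at -0.90 (SE 0.10) and Ncapd3 at -0.77 (SE 0.08). The gene of this list that rose with selpercatinib was Pttg1, which encodes the separase inhibitor securin, at 0.51 (SE 0.11) with an edgeR adjusted p of 0.00733. In the resistant cells Pttg1 rose by 1.30 (SE 0.11) with selpercatinib resistance and 1.42 (SE 0.11) with pralsetinib resistance. Wapl, which removes cohesin, fell by 0.75 (SE 0.06) with selpercatinib resistance and by 0.86 (SE 0.06) with pralsetinib resistance. Of 15 further APC/C subunit and E2 genes, 4 (26.7%) were lower and 3 (20%) higher in selpercatinib against DMSO, with a median of 0.03, close to the 26.9% lower and 26.6% higher among all genes. Within selpercatinib 1 of the 15 (6.67%) fell per day, against 7.78% of all genes, the E2 gene Ube2s at -0.17 (SE 0.03). Within DMSO 4 (26.7%) fell and 1 rose per day, against 15.9% and 18.0% of all genes. With selpercatinib resistance 8 (53.3%) were higher and 3 (20%) lower, against 35.2% and 34.4% of all genes. With pralsetinib resistance 7 (46.7%) were higher and 3 (20%) lower, against 35.8% and 34.6%. Spindle and cytokinesis genes outside the 37 fell in 28 of 47 cases (59.6%) and rose in 2, one of them Clasp1, a microtubule plus-end protein gene, at 0.71 (SE 0.06).

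The 45 DNA replication genes gave the comparison for another phase of the cycle. With selpercatinib 27 (60%) fell and 1 rose, with a median of -0.51, where 26.9% of all genes fell. Per day, 24 (53.3%) fell within selpercatinib and 42 (93.3%) within DMSO, where 7.78% and 15.9% of all genes fell, with median slopes of -0.28 in selpercatinib and -0.41 in DMSO. The thymidine kinase gene Tk1 was at -1.38 (SE 0.12) with selpercatinib and the polymerase alpha gene Pola1 at -1.13 (SE 0.10). In the resistant cells 30 (66.7%) were higher and 2 lower with selpercatinib resistance, and 34 (75.6%) were higher and 2 lower with pralsetinib resistance, where 35.2% and 35.8% of all genes were higher.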

How the data were processed

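Transcripts were measured by stranded, poly(A)-selected mRNA sequencing, per the labels' protocols. Per the submitters' processing notes, the authors used FastQC, STAR and edgeR with mm10, with no versions listed. How reads were counted, with which annotation and strand setting, is not given in the sources used here. The deposited tables hold whole-number counts per gene, 60723746 to 89827989 a library, although they are called CPM. A further 24 rows with numbers for names held 0.163 to 0.215% of the counts and stayed in the library sizes.

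The filter was a CPM of 1 or more in 4 or more acute or 2 or more resistance libraries, which kept 13209 and 14389 genes. The 2 tables were fitted apart with edgeR 4.0.16 (TMM, quasi-likelihood, two-sided p, Benjamini-Hochberg adjustment over every gene in the fit, threshold 0.05) in R 4.3.3. The drug comparison and the slope difference had day as a block. Slopes came from 1 line per arm, and the 3 groups of the resistance table from 1 fit. SE is the absolute log2 ratio over the square root of F. DESeq2 1.42.0 served as an alternative, and figures used Python 3.11.15 and matplotlib 3.10.9. The labels' batch tag pairs the arms by day. Same-day libraries deviated together from the means of their arms, with correlations of 0.512 to 0.669 over 10673 genes. A change with day that both arms share enters these correlations, so they cannot tell a batch from the day. The fits were run on simulated counts drawn with the same spread for every gene and no day effect shared by the arms. How they perform under the day effects of these data was not tested. Positions are those of GENCODE M21 (mm10).

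The members, roles and lists were chosen with earlier results of these data known. Values in every library are given for 16 genes, which are the lowest p per role in the acute and selpercatinib-resistant comparisons, Plk1 and Mki67, members against the main direction and the highest and lowest mean CPM. From each further list, genes among the lowest p with a mean CPM of at least 5 are named. Ranges and calls of other members complete the account. Pttg1 in the drug comparison and the single cell type markers were chosen after their values were seen. Paired libraries of the resistance table were not duplicates, since chi-square over its degrees of freedom was 12.95 in the selpercatinib-resistant, 44.79 in the pralsetinib-resistant and 7.02 in the parental pair. Alternatives covered scaling, the filter, DESeq2, the day term, the block and each library or day left out.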

Additional observations from a re-analysis of the deposited data

Results flagged for a closer look

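Plk1 was singled out because its drug effect differed between days by a test of the difference itself. Its slope in selpercatinib minus that in DMSO was 0.3223 log2 units per day (SE 0.06, edgeR quasi-likelihood test with Benjamini-Hochberg adjustment over 13209 genes, adjusted p = 0.0410). The drug log2 ratio was negative on 3 of 4 days and positive on day 5. Leaving out a day gave slope differences of 0.28 to 0.41. In each arm, the 4 log2 levels and the 4 day ratios of the 16 genes described by library were searched for a value far from the others, and none of these 48 groups held one.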

How the results depend on the processing

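Of 261 alternative values of the counts and medians over the 37 genes, 239 stayed within 1.5 times the count or within a spread set for each comparison. The acute table has 1 library per arm and day, so its spreads were over days and not between replicates. For the drug comparison the spread was 0.33 log2 units, beside a median of -0.61. Medians of -0.78 to -0.50 with a day or library left out thus counted as within it. The pralsetinib-resistant pair differs in labelled dose, so its spread is not one between replicates alone. Of 2581 values of single genes, 2564 kept their direction and 2297 also their side of the threshold. The drug comparison without the day as a block called 0 of 37 genes lower. With the block and a day or library left out it called 20 to 36, with 20 without day 2 and 21 without the selpercatinib library of day 2. Leaving out a day gave 0 to 37 slopes called lower in selpercatinib, where 0 to 2282 of all genes were, and a median DMSO slope of -0.71 to -0.60. Of the slope differences 0 to 15 were called, with a median of 0.09 to 0.22. Over all genes, 14 to 616 slope differences were called higher and 18 to 1068 lower in these fits. Slope differences called numbered 10 without the filter and 10 by DESeq2. Library totals in place of TMM gave medians of 0.80 for selpercatinib resistance and 0.78 for pralsetinib resistance, and 0 genes called lower with pralsetinib resistance. Leaving out a library gave 0 to 3 genes called lower and a median of 0.51 to 0.75 with pralsetinib resistance. Between the resistant groups it gave 0 to 9 called lower, 0 to 15 called higher and a median of -0.096 to 0.14, while the fit without the filter and DESeq2 each called 1 higher. Each fit with a library of the resistance table left out has 1 library in a group. Between the resistant groups, the number of calls over all genes also differed widely among these fits. Their counts of calls among the 37 therefore cannot be read alone. Signs turned in genes near 0. Ube2c with selpercatinib resistance was at 0.14 under library totals, 0.017 without the filter, 0.022 with a CPM of at least 5, 0.0018 with only the 2 groups compared and 0.0010 with a replicate block. With pralsetinib resistance and library totals, Ube2c was at 0.024 and Anln at 0.13. With a library left out, Ube2c spanned -0.052 to 0.047 and Cdca8 -0.082 to 0.094 with selpercatinib resistance, and Anln -0.19 to 0.092 with pralsetinib resistance. With a day left out, slope differences spanned -0.018 to 0.21 for Cdc25c, -0.18 to 0.23 for Kif18a, -0.27 to 0.34 for Nusap1 and -0.058 to 0.17 for Top2a. The cause was not tested.

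In the resistance table, selpercatinib-resistant and parental libraries share only a replicate number. Deviations of same-numbered libraries correlated at -0.108 over 11057 genes, and a replicate block called 34 genes higher and 1 lower. Crossed numbers, an alternative chosen after seeing the data, called 34 higher and 1 lower and put Ube2c at 0.00046. The paired analysis of the slope difference, set against 1 line per arm without the block, changed no count of calls among the 37. At an unadjusted p under 0.05 there were 20 of the 37 without the block and 19 with it, against 2189 and 2623 of all genes. No paired analysis was possible for pralsetinib resistance because its libraries carry doses and no numbers. With 1 library per arm and day and 2 per resistant group, precision is limited by the number of libraries rather than by depth, as no gene of the 37 had fewer than 190 counts. Median slopes on the log2 of the day are in another unit and were not set beside the others.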

Other observations

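The mean log2 CPM of the 37 mitosis genes on days 1, 2, 3 and 5 was 6.27, 5.78, 5.22 and 4.30 in selpercatinib, against 7.03, 6.74, 5.77 and 4.56 in DMSO. That of the 45 replication genes was 5.28, 4.96, 4.60 and 4.09 in selpercatinib, against 6.06, 5.76, 4.70 and 4.54 in DMSO. Each of these means comes from 1 library per arm and day, and the difference between the lists was not tested.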
